A study of Mus musculus with 31 samples.

Results

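The genes described here are 8 secreted messengers of mouse natural killer (NK) cells, namely the chemokines Ccl3, Ccl4, Ccl5, Ccl9 and Xcl1 and the cytokines Csf2, Osm and Il10. They were chosen by name and found by their Entrez identifiers among the 27179 genes of the count table, which held all 8. NK cells are innate lymphocytes that kill infected and tumour cells, and RNA was measured in 31 libraries of sorted NK cells. Wild-type cells (WT) were compared with cells lacking TGFBRII, the type II receptor for TGF-β (TGFBRII KO), and with cells lacking CIS (CIS KO), a suppressor of cytokine signalling encoded by Cish. Each genotype was measured unstimulated (4 WT, 3 TGFBRII KO and 4 CIS KO libraries), after 4 h with the cytokine TGFB1 (2, 3 and 4 libraries) and after 24 h with TGFB1 (4, 3 and 4 libraries). The labels number the libraries as biological replicates. Should they not come from separate animals or cultures, the p-values measure only the spread between these libraries. The strain, age, organ and sex of the mice, the way the genes were deleted, the dose of TGFB1 and any pooling of animals are not stated in the labels. No group of cells kept in culture without TGFB1 was analysed, so each response is a change against unstimulated cells that includes any effect of time in culture.

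Chemokines are small secreted proteins that guide cells through receptors on their surface. Activated NK cells are a known source of Ccl3, Ccl4 and Ccl5, which draw in macrophages and T cells, and of Xcl1, which attracts the cross-presenting dendritic cells that carry XCR1. TGF-β binds its type II receptor, which activates the type I receptor and through it the SMAD transcription factors, and this pathway is known for restraining NK cells.

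The libraries held 297561 to 1403005 counts (median 736193), and the shallowest was WT at 4 h, replicate 1. Cish was at 130 to 175 CPM (counts scaled to a common library size) in unstimulated WT and at 18.0 to 33.4 CPM in unstimulated CIS KO libraries. Tgfbr2, which encodes the type II receptor, stood at 189 to 250 CPM in unstimulated WT and 221 to 237 CPM in TGFBRII KO, and counts over a whole gene do not check a deletion of some of its exons. All 6 tested genes of the TGF-β feedback list, among them Pmepa1 and Ski, rose in WT and in CIS KO at both times. Of all genes edgeR called 11.9% and 21.1% in WT and 14.1% and 24.0% in CIS KO. In TGFBRII KO edgeR and DESeq2 called 0 of the 6 at either time (2 and 0 at an unadjusted p under 0.05 in edgeR). Of all genes edgeR called 8.02% and 0.0195% there, and 0 of 6 lies near these shares. Of 10 NK cell markers 9 passed the filter on low counts, whereas 0 of 6 B cell markers and 0 of 5 platelet and erythroid markers did. Genes of some other lists were present: 5 of 10 T cell markers passed (summed level 288 to 451 CPM over the 31 libraries), as did 3 of 6 dendritic cell markers (195 to 376 CPM) and 2 of 5 markers of type 2 and 3 innate lymphoid cells (126 to 301 CPM). Xist, the RNA of the inactive X chromosome, had 91.1 to 222 CPM in the WT libraries, 12.6 to 131 in the TGFBRII KO libraries and 0 to 5.22 in the CIS KO libraries. Transcripts of 4 Y-linked genes summed to 1.38 to 124, 187 to 451 and 392 to 558 CPM in the same order. All TGFBRII KO libraries thus held both, and in WT the highest Y-linked sums came from replicate 2 (91.1 CPM unstimulated and 124 CPM at 24 h). A difference between genotypes therefore cannot be told apart from one that follows the sex of the mice.

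Of the 8 genes, 6 passed the filter and were tested. Csf2 and Il10 did not. Ccl3, Ccl4, Ccl5 and Ccl9 lie within 138.9 kb of chromosome 11 (GRCm38.p6, the mm10 assembly). Csf2 and Osm lie elsewhere on chromosome 11, and Xcl1 and Il10 on chromosome 1. RefSeq holds a start-site sequence for 4 of the 8 in the table used here (Ccl3, Ccl9, Xcl1 and Csf2), in GRCm38.p6. The 250 bases before the start of 3 genes are shown, all 3 on the minus strand, because Ccl9 changed most, Ccl3 lies in the same gene cluster and Xcl1 passed no test. Capitals mark matches on either strand to 4 motifs: TATAAA (the TATA box), TGANTCA (the AP-1 site), CAGAC (the SMAD box) and GGAAA (the NFAT core).
Ccl9 (chr11:83578637-83578886): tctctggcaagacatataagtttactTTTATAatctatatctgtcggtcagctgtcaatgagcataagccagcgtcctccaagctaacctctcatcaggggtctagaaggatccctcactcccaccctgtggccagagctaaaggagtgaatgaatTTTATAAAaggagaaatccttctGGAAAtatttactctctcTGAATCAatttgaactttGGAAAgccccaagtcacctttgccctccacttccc
Ccl3 (chr11:83649379-83649628): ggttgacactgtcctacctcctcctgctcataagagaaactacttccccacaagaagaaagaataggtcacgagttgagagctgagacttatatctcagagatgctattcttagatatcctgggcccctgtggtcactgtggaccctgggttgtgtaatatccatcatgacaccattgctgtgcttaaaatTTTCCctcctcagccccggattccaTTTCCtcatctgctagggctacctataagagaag
Xcl1 (chr1:164935523-164935772): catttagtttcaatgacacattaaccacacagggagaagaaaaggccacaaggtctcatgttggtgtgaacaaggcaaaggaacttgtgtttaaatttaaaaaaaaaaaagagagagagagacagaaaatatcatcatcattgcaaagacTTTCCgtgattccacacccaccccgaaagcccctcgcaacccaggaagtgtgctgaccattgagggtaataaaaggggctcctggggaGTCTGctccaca
The Ccl9 sequence held TATAAA on both strands, overlapping at 94 to 87 bases before the start, and again at 224 to 219 bases before it. It also held the AP-1 letters at 53 to 47 bases before the start and GGAAA at 71 to 67 and 35 to 31 bases. The SMAD box letters were absent from the Ccl9 sequence. The Ccl3 sequence held GGAAA at 59 to 55 and 34 to 30 bases before the start, on the opposite strand, and none of the other 3 motifs. In Xcl1, the SMAD box letters stood at 12 to 8 bases and GGAAA at 100 to 96 bases before the start. Among 27025 promoter windows of the same length, 13.0% held TATAAA, 6.87% the AP-1 letters, 42.1% the SMAD box letters and 55.6% GGAAA. A match is a description of letters and not a site in use.

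Per kilobase of exon, the most abundant of these transcripts in unstimulated WT cells were Xcl1, Ccl4 and Ccl5, at mean levels of 439, 384 and 370 CPM per kb. Ccl3 stood at 185 CPM per kb, Ccl9 at 29.2, Osm at 15.1 and Csf2 at 2.44 CPM per kb, and Il10 at 0. These are bulk samples, in which fewer cells making a transcript and less transcript per cell cannot be told apart. Values below are CPM scaled for library composition with TMM factors, and a change is a log2 fold change ± its standard error. Genes with an adjusted p under 0.05 in edgeR's quasi-likelihood test, adjusted by Benjamini-Hochberg over the 10275 genes tested, are named called.

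Ccl9, a ligand of the receptor CCR1, fell after TGFB1 in WT and CIS KO cells at both times. In TGFBRII KO cells its change against unstimulated cells passed no test at either time. In unstimulated WT cells Ccl9 was at 66.1, 79.9, 109 and 101 CPM. The 2 WT libraries at 4 h held 15 and 11.3 CPM, and the 4 libraries at 24 h held 5.37, 6.47, 7.45 and 10.4 CPM. Each stimulated WT library lay below each unstimulated one, and the 24 h libraries all lay below those at 4 h. The stimulated WT libraries held few counts of Ccl9, 4 and 9 at 4 h and 4, 6, 5 and 7 at 24 h. Their order between the 2 times therefore rests on few counts. The log2 change was -2.86 ± 0.393 at 4 h (adjusted p = 2.78e-06), or 7.26 times lower, and -3.59 ± 0.295 at 24 h (adjusted p = 1.23e-11), or 12.1 times lower. Between 4 h and 24 h in WT it was -0.73 ± 0.617, which was not called (adjusted p = 0.505). The changes at 4 h and 24 h share their unstimulated libraries.

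In CIS KO cells Ccl9 was at 74.6, 76.1, 66.8 and 105 CPM unstimulated, at 25.5, 4.75, 8.23 and 27.2 CPM at 4 h, and at 2.83, 5.39, 3.12 and 6.96 CPM at 24 h. The groups at 4 h and 24 h did not overlap with the unstimulated group, and the 4 h libraries fell into a higher and a lower pair. Here too the counts were low, 20, 2, 4 and 11 at 4 h and 2, 8, 2 and 4 at 24 h. The log2 change was -2.23 ± 0.293 at 4 h (adjusted p = 6.72e-07) and -4.09 ± 0.339 at 24 h (adjusted p = 2.89e-11), the latter 17.0 times lower. From 4 h to 24 h it fell by 1.86 ± 0.487 (adjusted p = 0.00883). That call was lost without CIS KO at 4 h, replicate 1 (-1.45, adjusted p = 0.0841). The CIS KO response minus the WT response was 0.63 ± 0.582 at 4 h (adjusted p = 0.756, 95% interval from -0.51 to 1.77) and -0.50 ± 0.58 at 24 h (adjusted p = 0.713, interval from -1.63 to 0.64), so no difference between these genotypes was detectable for Ccl9.

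In TGFBRII KO cells Ccl9 was at 147, 115 and 126 CPM unstimulated, at 131, 83.5 and 131 CPM at 4 h, and at 161, 116 and 139 CPM at 24 h. The 3 groups overlapped, and the changes were -0.15 ± 0.189 at 4 h (adjusted p = 0.725) and 0.11 ± 0.184 at 24 h (adjusted p = 0.99). The TGFBRII KO response minus the WT response was 2.71 ± 0.454 at 4 h (adjusted p = 0.000147) and 3.70 ± 0.362 at 24 h (adjusted p = 3.66e-09). At 4 h Ccl9 was 9.40 times as high in TGFBRII KO as in WT (log2 difference 3.23 ± 0.388, adjusted p = 1.78e-07), and at 24 h 18.6 times as high (4.22 ± 0.287, adjusted p = 1.14e-13). Before stimulation the 3 TGFBRII KO libraries also lay above the 4 WT ones, with a difference of 0.52 ± 0.18 that was not called (adjusted p = 0.328).

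Ordered by its mean, Ccl9 was lowest in CIS KO at 24 h (4.58 ± 1.96 CPM, SD, n = 4), followed by WT at 24 h (7.42 ± 2.15, n = 4), WT at 4 h (13.2 ± 2.66, n = 2) and CIS KO at 4 h (16.4 ± 11.6, n = 4). None of the 3 steps between these neighbours passed the test (adjusted p = 0.689, 0.505 and 0.928 in edgeR's test). Next came unstimulated CIS KO (80.7 ± 17.0, n = 4) and WT (88.9 ± 19.6, n = 4), which differed by -0.12 ± 0.194 (adjusted p = 0.72), and then the TGFBRII KO groups at 4 h (115 ± 27.6, n = 3), unstimulated (129 ± 16.4, n = 3) and at 24 h (139 ± 22.9, n = 3).

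**Figure D1:**
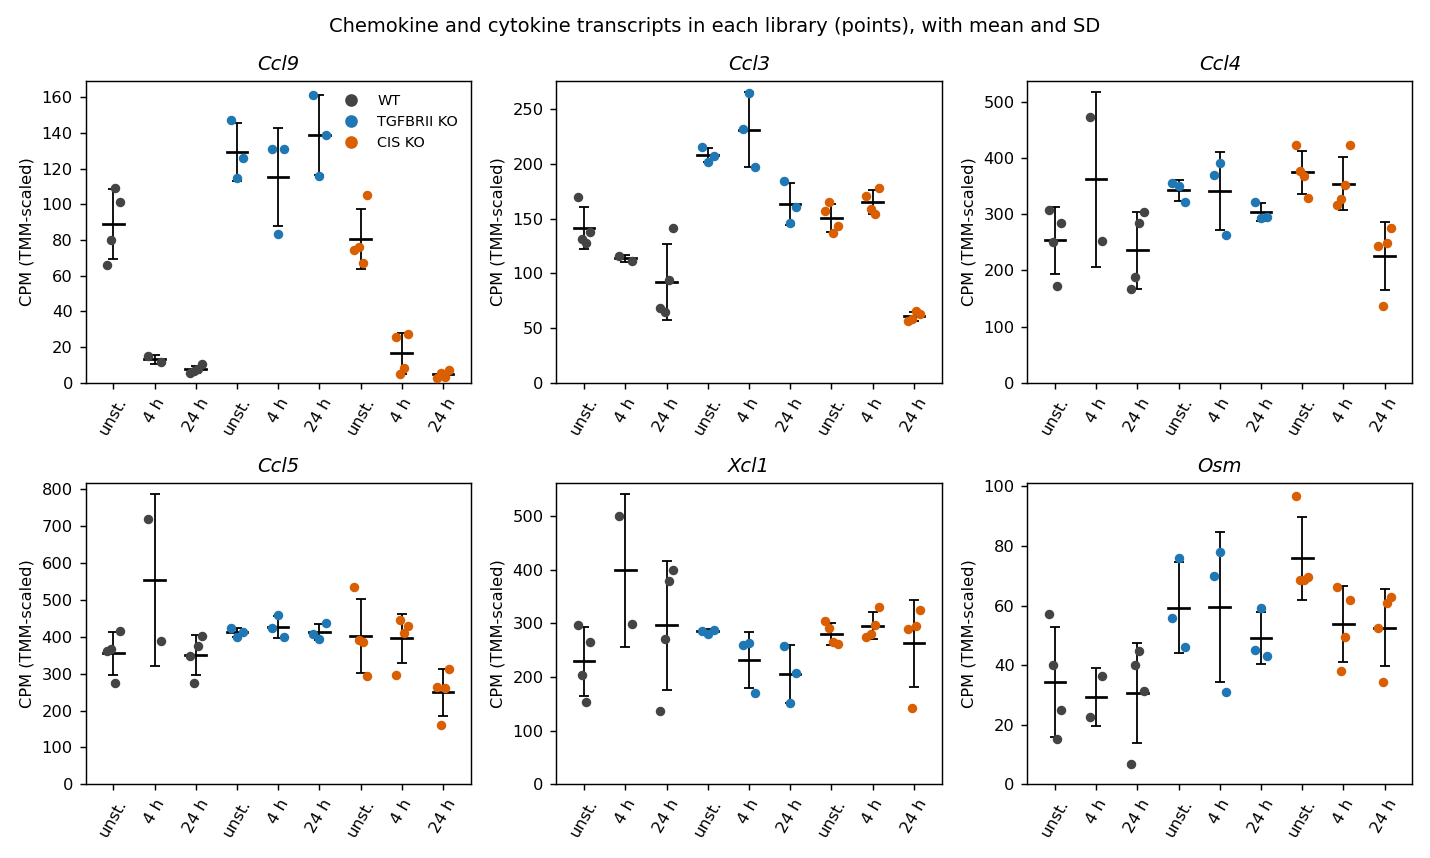
TMM-scaled CPM of the 6 tested genes (y axis) in each library (points) of the 9 groups (x axis), with the group mean (bar) and SD (whiskers). The stimulated WT and CIS KO libraries of Ccl9 reach at most 27.2 CPM, below the lowest unstimulated library at 66.1 CPM, and the TGFBRII KO libraries lie between 83.5 and 161 CPM.

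Ccl9 is known from myeloid cells, and transcripts of other cell types were read beside it. The 10 myeloid markers summed to 126 to 174 CPM in unstimulated WT, 169 to 200 CPM at 4 h and 136 to 202 CPM at 24 h, and to 141 to 152, 116 to 150 and 86.3 to 122 CPM in CIS KO. In TGFBRII KO the same sums were 190 to 215, 117 to 154 and 156 to 209 CPM. Of these 10, 3 passed the filter, S100a9 and Ly6g were at 0 in all libraries, and Lyz2 reached at most 1.27 CPM. Most of the sum was Itgam, an integrin that NK cells also carry. Cd14 and Cd68 were present in every library, at 6.71 to 32.1 CPM and 4.32 to 19.3 CPM. After 24 h the sum overlapped with that of unstimulated cells in WT and lay below it without overlap in CIS KO. Of 5 mast cell and basophil markers 2 passed the filter, and their sum went from 179 to 212 CPM in unstimulated WT to 145 to 199 CPM at 4 h and 52.2 to 78.6 CPM at 24 h. In CIS KO it went from 178 to 251 CPM to 165 to 215 and 69.3 to 89.7 CPM, and in TGFBRII KO from 228 to 270 CPM to 179 to 242 and 210 to 255 CPM. At 24 h this sum, like Ccl9, was thus below the unstimulated range in WT and CIS KO and overlapped with it in TGFBRII KO. At 4 h the sum overlapped with the unstimulated range in each genotype, whereas Ccl9 was already below its own without overlap in WT and CIS KO. In WT, Cpa3 fell by 1.79 ± 0.299 at 4 h (adjusted p = 5.85e-05) and Mcpt8 by 2.03 ± 0.18 at 24 h (adjusted p = 6.58e-11), both encoding proteases of mast cells or basophils, while Ms4a2 and Fcer1a, which encode chains of their IgE receptor, were at 0 in all libraries. The part of these transcripts in the Ccl9 result was not tested. Within TGFBRII KO, replicate 2 held the lowest Ccl9 in each of the 3 groups, and its 3 libraries had Xist at 12.6 to 30.2 CPM against 69.1 to 131 CPM in replicates 1 and 3. Leaving out each library in turn gave TGFBRII KO minus WT response differences of 2.43 to 2.88 at 4 h and 3.56 to 3.88 at 24 h, all called.

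Ccl3, a ligand of CCR1, fell in WT and CIS KO cells at 24 h and passed no test at 4 h. WT libraries held 170, 131, 128 and 138 CPM unstimulated, 116 and 111 CPM at 4 h, and 68.5, 64.7, 93.9 and 141 CPM at 24 h. Both 4 h libraries lay below the unstimulated ones, and at 24 h replicate 4 lay within their range while the other 3 lay below it. The change was -0.32 ± 0.197 at 4 h (adjusted p = 0.302) and -0.65 ± 0.149 at 24 h (adjusted p = 0.00131), or 1.57 times lower. CIS KO libraries held 157, 165, 137 and 143 CPM unstimulated, 171, 159, 154 and 178 CPM at 4 h, and 56.6, 58.0, 65.5 and 62.7 CPM at 24 h. The 24 h libraries were tightly grouped and lay far below the other 8. Ccl3 fell by 1.32 ± 0.167 against unstimulated CIS KO cells (2.49 times lower, adjusted p = 2.84e-07) and by 1.46 ± 0.165 against those at 4 h (adjusted p = 3.22e-07). The CIS KO response at 24 h minus the WT response was -0.67 ± 0.226, with a 95% interval from -1.11 to -0.23, which was not called (adjusted p = 0.155). The level at 24 h differed between CIS KO and WT by -0.58 ± 0.172 (adjusted p = 0.053), on the edge of the threshold.

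In TGFBRII KO, Ccl3 was at 215, 202 and 207 CPM unstimulated, 232, 265 and 197 CPM at 4 h, and 184, 146 and 161 CPM at 24 h. The 24 h libraries were the lowest of the 3 groups, without overlap. Against unstimulated cells the change at 24 h was -0.35 ± 0.149 (adjusted p = 0.584), and against 4 h Ccl3 fell by 0.49 ± 0.147 (adjusted p = 0.0325). The latter call was lost with DESeq2 (adjusted p = 0.0824) and without any of 4 of the 6 libraries, namely 4 h replicates 1 and 2 and 24 h replicates 2 and 3 (adjusted p up to 0.18). Ccl3 was higher in TGFBRII KO than in WT by 1.02 ± 0.197 at 4 h (2.03 times, adjusted p = 0.000302) and by 0.86 ± 0.156 at 24 h (1.81 times, adjusted p = 6.59e-05), with no overlap of libraries. In unstimulated cells the difference was 0.56 ± 0.14, also without overlap, and was not called (adjusted p = 0.0902). The response of TGFBRII KO at 24 h minus that of WT was 0.30 ± 0.211 (adjusted p = 0.447), so unlike Ccl9 the response of Ccl3 was not shown to differ between these genotypes.

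Ccl4 and Ccl5, both attractants of T cells, fell only in CIS KO at 24 h among the 6 responses against unstimulated cells. That a response was called in CIS KO and not in WT does not show that the genotypes differ, and the differences between their responses at 24 h were not called (-0.65 ± 0.282, adjusted p = 0.288, for Ccl4 and -0.68 ± 0.255, adjusted p = 0.211, for Ccl5). Ccl4 in CIS KO was at 423, 377, 369 and 330 CPM unstimulated, 317, 328, 352 and 423 CPM at 4 h, and 243, 137, 249 and 275 CPM at 24 h. All 24 h libraries lay below the other 8, replicate 2 furthest. The change against unstimulated cells was -0.76 ± 0.201 (adjusted p = 0.00557). Ccl5 in CIS KO was at 536, 390, 385 and 294 CPM unstimulated, 297, 445, 410 and 430 CPM at 4 h, and 265, 160, 262 and 312 CPM at 24 h. Here the groups overlapped, and replicate 2 at 24 h was again the lowest, with a change of -0.69 ± 0.185 (adjusted p = 0.00587). That replicate is the deepest library of the series (1403005 counts). Between 4 h and 24 h in CIS KO both genes fell by 0.68 (adjusted p = 0.0198 for Ccl4 and 0.0118 for Ccl5), and without the deepest library these values were -0.48 (adjusted p = 0.103) and -0.50 (adjusted p = 0.0684). The Ccl4 call was also lost without CIS KO at 4 h, replicate 4 (-0.59, adjusted p = 0.0765). Of the 9 tested NK cell markers 4 also fell in CIS KO at 24 h by edgeR and 4 by DESeq2, with a median change of -0.41. Over all genes edgeR called 24.0% there. In WT at 24 h DESeq2 called 3 of the 9 lower, while it called neither Ccl4 nor Ccl5. The sum of the NK cell markers was 3110 to 4450 CPM in unstimulated CIS KO and 2140 to 3140 CPM at 24 h, and its part in the result was not tested.

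In WT, Ccl4 was at 308, 251, 172 and 285 CPM unstimulated, 473 and 252 CPM at 4 h, and 167, 188, 285 and 304 CPM at 24 h. Ccl5 was at 362, 366, 276 and 416 CPM, then 718 and 388 CPM, then 348, 276, 376 and 402 CPM. For both genes the high 4 h value came from the shallowest library, and the other 4 h library lay within the unstimulated range. The changes were 0.44 ± 0.25 for Ccl4 (adjusted p = 0.255) and 0.59 ± 0.218 for Ccl5 (adjusted p = 0.0723) at 4 h, and -0.10 ± 0.198 and -0.016 ± 0.175 at 24 h (adjusted p = 0.773 and 0.968). In TGFBRII KO, Ccl4 lay between 263 and 392 CPM and Ccl5 between 394 and 458 CPM over all 9 libraries, and their changes ran from -0.17 to 0.05.

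Xcl1, the ligand of XCR1, was called in 0 of the 19 comparisons by edgeR and in 0 by DESeq2, with 4 at an unadjusted p under 0.05 in edgeR. It was at 296, 203, 153 and 265 CPM in unstimulated WT, at 500 and 298 CPM at 4 h, and at 137, 270, 379 and 399 CPM at 24 h. The 500 CPM came from the shallowest library, the other 4 h library lay just above the highest unstimulated one, and the 24 h group spread across the unstimulated range. The changes were 0.74 ± 0.297 (adjusted p = 0.0973) and 0.38 ± 0.236 (adjusted p = 0.288). Without the shallowest library the change at 4 h was 0.39 (adjusted p = 0.656), without the other 4 h library 1.14 (adjusted p = 0.0557), and without unstimulated WT replicate 1 it was called (0.94, adjusted p = 0.0492). In TGFBRII KO it was at 286, 281 and 288 CPM unstimulated, 259, 264 and 171 CPM at 4 h, and 258, 151 and 208 CPM at 24 h. All 6 stimulated TGFBRII KO libraries lay below the unstimulated ones, with changes of -0.31 ± 0.272 (adjusted p = 0.569) and -0.47 ± 0.273 (adjusted p = 0.808). The TGFBRII KO response minus the WT response was -1.05 ± 0.403 at 4 h (adjusted p = 0.114) and -0.84 ± 0.361 at 24 h (adjusted p = 0.148), opposite in sign to that of Ccl9. In CIS KO, 11 of the 12 Xcl1 values lay between 261 and 331 CPM, and the remaining one, 143 CPM, came from the deepest library.

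Osm encodes oncostatin M, a cytokine of the interleukin-6 family. It was at 57.2, 40.0, 15.1 and 24.9 CPM in unstimulated WT and at 96.7, 68.6, 68.7 and 69.4 CPM in unstimulated CIS KO. The CIS KO libraries lay above the WT ones without overlap, a difference of 1.17 ± 0.33 or 2.25 times (adjusted p = 0.0333). This call was lost with the depth of the libraries in the model (0.92, adjusted p = 0.248), and without WT replicate 3 or 4 (0.86 and 1.08, adjusted p = 0.19 and 0.0637) or CIS KO replicate 1, 2 or 3 (1.06, 1.21 and 1.21, adjusted p = 0.121, 0.0632 and 0.0805). DESeq2 gave the same size of difference (1.17) but no adjusted p for Osm. Stimulated Osm values ran from 6.71 to 44.7 CPM in WT and from 34.4 to 66.2 CPM in CIS KO, and the 2 CIS KO groups lay below the unstimulated one. No response of Osm to TGFB1 was called in any genotype, the largest being -0.58 ± 0.312 in CIS KO at 24 h (adjusted p = 0.175). In TGFBRII KO, Osm was at 55.7, 75.9 and 46.2 CPM unstimulated, 69.9, 77.8 and 30.9 CPM at 4 h, and 45.1, 59.0 and 42.9 CPM at 24 h, with replicate 2 the highest each time.

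**Figure D2:**
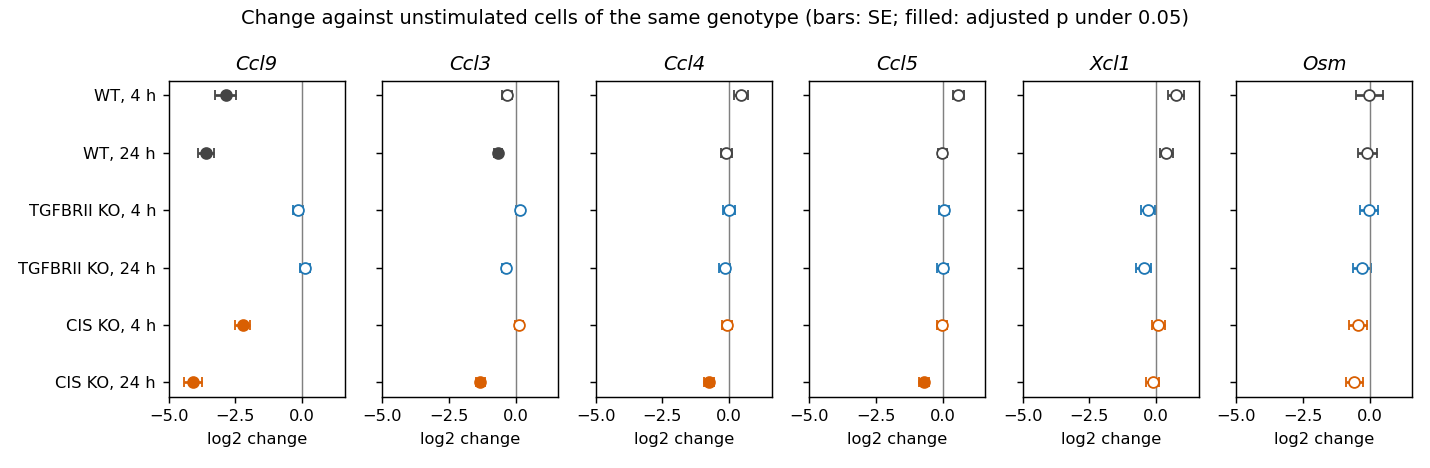
Log2 change (x axis) of the 6 tested genes after 4 h and 24 h of TGFB1 against unstimulated cells of the same genotype (rows); points are fitted values, whiskers 1 standard error, and filled points have an adjusted p under 0.05. Ccl9 is filled in WT and CIS KO and lies near 0 in TGFBRII KO, from -0.15 to 0.11, and 4 genes are filled in CIS KO at 24 h.

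Csf2, which encodes the growth factor GM-CSF, had 28 counts in all, found in 17 of 31 libraries with at most 4 in any of them. Summed over a group, unstimulated cells held 7 counts in WT (2.05 CPM, 95% Poisson interval 0.823 to 4.22), 7 in TGFBRII KO (2.91 CPM, 1.17 to 5.99) and 3 in CIS KO (1.38 CPM, 0.284 to 4.02). At 24 h the sums were 2 counts in WT (0.669 CPM, 0.081 to 2.42), 1 in TGFBRII KO (0.408 CPM, 0.0103 to 2.27) and 0 in CIS KO, for which 3 counts would be 0.897 CPM. The sums were lower at 24 h in all 3 genotypes, and the intervals overlapped within each. Csf2 was not tested, and overlap of intervals does not decide whether it changed. At 4 h they were 1, 5 and 2 counts. Il10, which encodes an anti-inflammatory cytokine, had 1 count in 1 library, CIS KO at 4 h. Over a group, 3 counts of Il10 would be 0.878 to 2.72 CPM. The intervals cover counting error only.

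**Figure D3:**
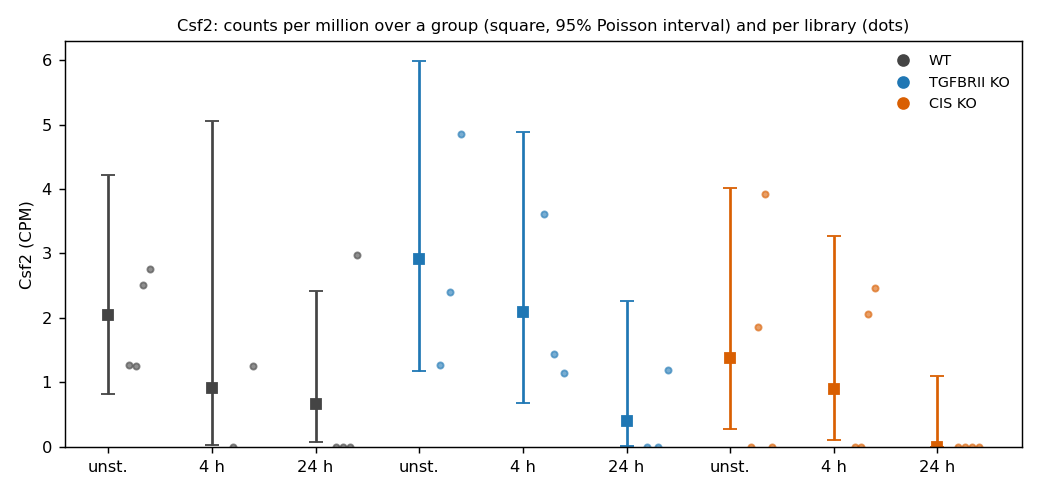
Csf2 in CPM (y axis) summed over each group (squares, with 95% Poisson intervals of counting error) and in each library (dots), for the 9 groups (x axis). The intervals of the 3 groups of each genotype overlap, CIS KO at 24 h is at 0 in its 4 libraries, and its interval (0 to 1.1 CPM) lies below that of unstimulated TGFBRII KO (1.17 to 5.99 CPM).

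Counted over the 6 tested genes, 1 was called in WT after 4 h with TGFB1 (Ccl9), where 11.9% of all tested genes were called. After 24 h 2 were called (Ccl9 and Ccl3), against 21.1% of all tested genes. Neither count lies far from these shares. Between 24 h and 4 h in WT edgeR called 0 of the 6 (7.57% of all genes), with 2 at an unadjusted p under 0.05 and 0 called by DESeq2. In CIS KO 1 was called at 4 h (14.1% of all genes), 4 at 24 h (24.0%) and 4 between 24 h and 4 h (15.4%), all lower. In TGFBRII KO edgeR called 0 at 4 h (8.02% of all genes) and 0 at 24 h (0.0195%), with 0 and 1 at an unadjusted p under 0.05 and 0 by DESeq2 at either time. Between 24 h and 4 h in TGFBRII KO 1 was called (8.17%).

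Against WT, edgeR called 0 of the 6 in unstimulated TGFBRII KO (0.146% of all genes), and DESeq2 called 0. All 6 were higher there, and 4 had an unadjusted p under 0.05 in edgeR, as did 929 of all 10275 tested genes. The 6 are not independent, as Ccl4 and Ccl5 correlated at 0.79 across the libraries. At 4 h and 24 h, 2 were higher in TGFBRII KO than in WT, Ccl3 and Ccl9 each time (11.8% and 21.6% of all genes were called). In CIS KO against WT, 1 was called unstimulated (Osm, higher; 6.15% of all genes), where DESeq2 called Ccl4 instead (higher by 0.58, adjusted p = 0.0482, against 0.57 and 0.0669 in edgeR). Further, edgeR called 0 at 4 h (0.273%) and 0 at 24 h (3.27%), with 1 and 2 at an unadjusted p under 0.05 and 0 by DESeq2. The TGFBRII KO response differed from the WT response for 1 gene, Ccl9, at 4 h (7.57% of all genes) and at 24 h (10.8%). The CIS KO response differed from the WT response for 0 by edgeR at 4 h (0% of all genes) and 0 at 24 h (1.33%), with 1 and 3 at an unadjusted p under 0.05 and 0 by DESeq2.

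Counts of several of these genes did not grow in proportion to the depth of the library. Within groups, a slope of log counts on log depth near 1 means proportional growth, and the median slope over 6678 genes with a mean of at least 30 counts was 1.07. The slopes were 0.37 ± 0.0423 for Ccl5, 0.40 ± 0.109 for Ccl4, 0.41 ± 0.168 for Xcl1 and 0.67 ± 0.282 for Osm (SE). Ccl3 had a slope of 0.92 ± 0.138 and Ccl9 of 1.79 ± 0.262. In genes with a slope under 1, CPM is higher in shallow libraries and lower in deep ones, as in the shallowest and deepest libraries above. With depth as a covariate in the model, the changes in CIS KO at 24 h were -0.39 for Ccl4 and -0.28 for Ccl5, both still called, and between 24 h and 4 h in CIS KO the Ccl4 value was -0.33 (adjusted p = 0.104). Those of Ccl9 and Ccl3 at 24 h in CIS KO were -4.58 and -1.20, and in WT -3.47 and -0.69, all called.

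**Figure D4:**
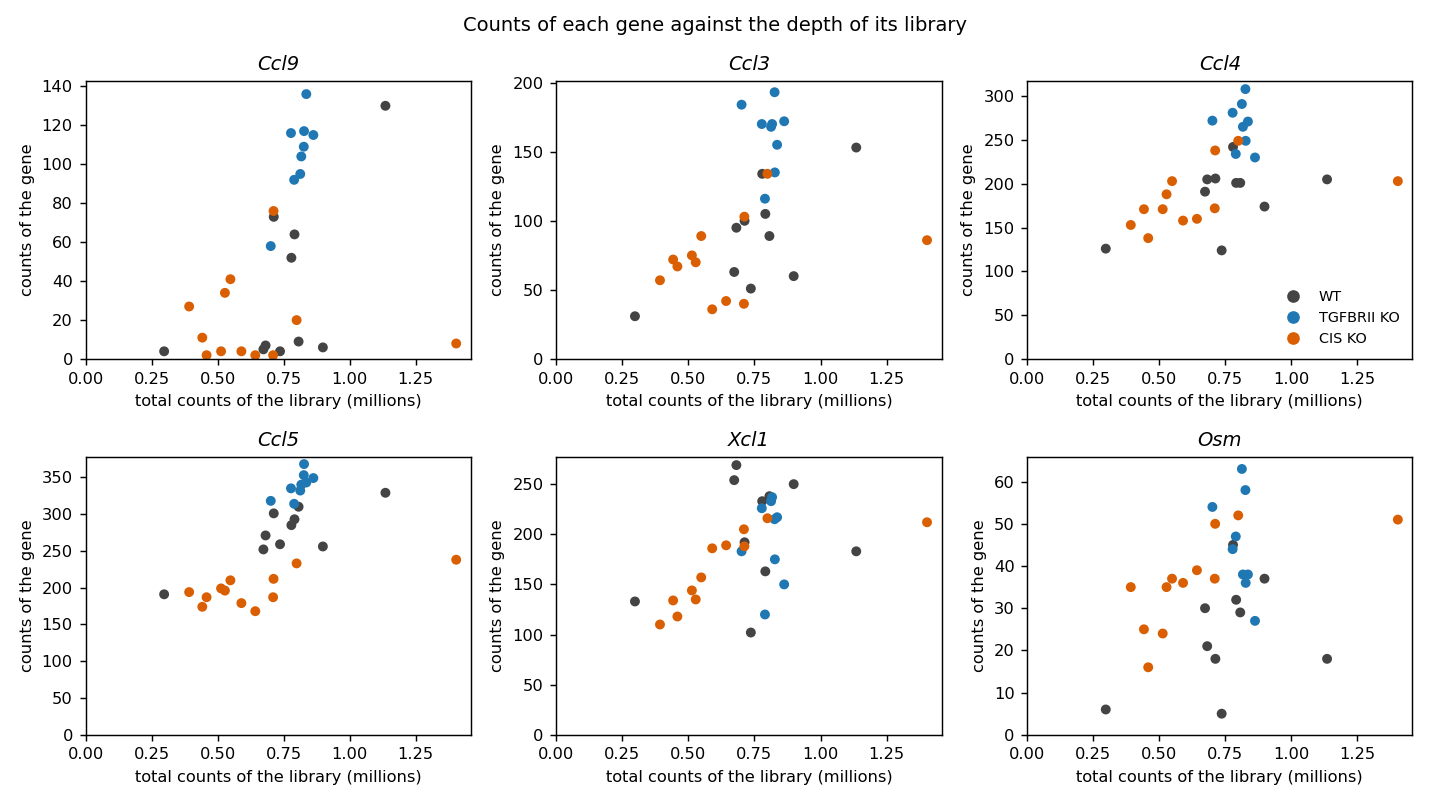
Deposited counts of each of the 6 tested genes (y axis) against the total counts of the library (x axis), 1 point per library, coloured by genotype. The counts of Ccl5 range from 168 to 368 and those of Xcl1 from 102 to 269, while depth spans 297561 to 1403005 counts.

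Across the 31 libraries the log2 CPM of Ccl9 was most like that of Serpina3f, Grk5 and Glipr2 (Pearson r = 0.94 for each), and that of Ccl3 most like Plek (0.94), Pik3r1 (0.90) and Pim1 (0.89). Ccl4 was nearest to Slc7a5 (0.92), Gzmb (0.90) and Cnn2 (0.90), Ccl5 to Gmfg-ps (0.89), Hdac7 (0.87) and Grk2 (0.85), Xcl1 to Psmb9 (0.92), Tap2 (0.88) and Sdf2 (0.87), and Osm to Eaf1 (0.86), Ppp2cb (0.85) and Commd1 (0.84). Among the 6 genes the largest correlations were 0.79 between Ccl4 and Ccl5 and 0.77 between Ccl3 and Ccl9, and that between Ccl9 and Xcl1 was -0.22. These values describe libraries that share genotype, time and depth.

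Receptors for Il10 and Xcl1 were measured in the same cells. Il10ra and Il10rb encode the chains of the Il10 receptor, and Xcr1 encodes that of Xcl1, whereas Ccr1, the receptor of Ccl9 and Ccl3, reached at most 2.88 CPM. On the log2 scale Il10ra fell by 0.54 ± 0.139 in WT at 24 h (adjusted p = 0.00417, edgeR) and by 0.63 ± 0.154 in CIS KO at 24 h (adjusted p = 0.00284). In TGFBRII KO the change of Il10ra at 24 h was 0.17 ± 0.147 (adjusted p = 0.937), and its response differed from that of WT by 0.71 ± 0.203 (adjusted p = 0.0175, edgeR's interaction term), a call that DESeq2 did not make. Il10rb fell in CIS KO by 0.62 ± 0.142 at 4 h and 0.52 ± 0.129 at 24 h (adjusted p = 0.00341 and 0.00337). Xcr1 passed no test against unstimulated cells in any genotype, with adjusted p-values of 0.269 and 0.567 in WT at 4 h and 24 h.

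Of 30 other chemokine genes only Ccl1 and Cx3cl1 passed the filter, and 11 were at 0 in all libraries. Neither was called in WT or CIS KO, and Ccl1 fell by 0.57 ± 0.174 in TGFBRII KO at 4 h (adjusted p = 0.0357), a call that DESeq2 did not make. Ccl6, which is closely related to Ccl9 and did not pass the filter, was named after its values were seen: it lay at 3.81 to 9.99 CPM in unstimulated WT, at 0 to 1.25 CPM at 4 h and at 0 to 2.69 CPM at 24 h. In TGFBRII KO it lay at 9.64 to 13.9, 1.44 to 7.23 and 7.12 to 8.33 CPM. In CIS KO it lay at 1.39 to 3.93, 0 to 4.12 and 0 to 2.7 CPM. Ccl6 values after TGFB1 thus lay below the unstimulated ones without overlap in WT and TGFBRII KO, whereas they overlapped in CIS KO, and no test was made. Among 38 other cytokine genes 9 passed, and in WT 3 rose at 4 h and the same number at 24 h, with 0 lower (3 and 2 rose by DESeq2). Over all genes edgeR called 11.9% and 21.1% there. In TGFBRII KO edgeR (8.02% of all genes called) and DESeq2 each called 1 higher at 4 h, in edgeR the growth factor Vegfa (1.89 ± 0.294, adjusted p = 7.31e-05). Flt3l, a growth factor for dendritic cells, rose by 1.21 ± 0.218 and 0.81 ± 0.174 in WT (adjusted p = 0.000167 and 0.000599), and Tgfb1 itself by 1.25 ± 0.337 and 0.84 ± 0.272 (adjusted p = 0.0121 and 0.0226). In CIS KO 4 rose at 4 h, among them the macrophage activator Ifng (0.68 ± 0.138, adjusted p = 0.000496), and at 24 h 1 rose and 2 fell. Over all genes 14.1% and 24.0% were called in CIS KO. The median over the 9 was 0.51 in WT at 4 h and 0.78 at 24 h, against -0.016 and 0.026 over all tested genes.

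Regulators of chemokine and cytokine transcription were mixed. Of 32 such transcription factors 29 were tested, and in WT 8 rose and 3 fell at 4 h and 5 rose and 4 fell at 24 h, with medians of 0.22 and 0.11. DESeq2 called 7 higher and 1 lower at 4 h and 5 higher and 3 lower at 24 h, and over all genes edgeR called 11.9% and 21.1%. Junb, a subunit of AP-1, rose by 1.10 ± 0.231 (adjusted p = 0.00126) and Runx3 by 0.82 ± 0.137 (adjusted p = 6.5e-05) in WT at 4 h, while Maf fell by 1.14 ± 0.157 (adjusted p = 7.48e-07) and Runx1 by 0.93 ± 0.179 (adjusted p = 0.000146) at 24 h. In CIS KO 6 rose and 2 fell at 4 h, and 2 rose and 6 fell at 24 h, where edgeR called 14.1% and 24.0% of all genes. Those that fell at 24 h included Irf8 by 1.10 ± 0.147 (adjusted p = 8.3e-07) and Batf by 0.81 ± 0.147 (adjusted p = 0.000109). In TGFBRII KO 3 rose and 2 fell at 4 h and both tools called 0 of 29 at 24 h (2 at an unadjusted p under 0.05). Over all genes edgeR called 8.02% and 0.0195% there. These shares of all genes, by genotype and time, also apply to the lists that follow. Of 14 tested inhibitors of NF-kB and MAP kinase signals, 3 rose and 1 fell in WT at 4 h, with Dusp2 up by 1.08 ± 0.243 (adjusted p = 0.00244) and Nfkbib, which holds NF-kB in the cytoplasm, down by 0.92 ± 0.202 (adjusted p = 0.0021). In TGFBRII KO each tool called 1 of the 14 higher at 4 h, in edgeR Nfkbiz (1.10 ± 0.293, adjusted p = 0.0158). At 24 h 1 rose in WT, which DESeq2 did not call, and 1 fell in CIS KO. Of 13 tested RNA-binding regulators of cytokine transcripts, 2 rose in WT at 4 h and 1 at 24 h, led by Zfp36l2, which promotes decay of such transcripts (0.99 ± 0.177 and 0.75 ± 0.137, adjusted p = 0.000167 and 6.79e-05). DESeq2 called 1 of the 13 in WT at each time, and in TGFBRII KO each tool called 1 higher at 4 h, in edgeR Zc3h12a (0.99 ± 0.279, adjusted p = 0.0218). In CIS KO 2 of the 13 rose at 4 h, and at 24 h both tools called 0 (1 at an unadjusted p under 0.05 in edgeR).

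Some of the counts carry an uncertainty of position. In RefSeq the Ccl4 model (83648624 to 83664683) overlaps with part of Ccl3 (83647843 to 83649378), which lies on the opposite strand. Ccl5 and Csf2 lie within models of long non-coding RNAs that the count table does not list. The library kit keeps strand, per the labels' protocols, but the strand setting of the counting is not given there, so reads in these overlaps cannot be traced.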

How the data were processed

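RNA of sorted mouse NK cells was measured in 31 libraries. The authors deposited whole-number counts for each Entrez gene, in a table whose 31 columns were matched to the sample titles. Per the submitters' processing notes, FastQC, Trimmomatic, Subread, featureCounts, Picard and SAMtools were used with mm10, with no versions or roles. The sources used here do not give the strand setting, the annotation version or any removal of duplicate reads. Symbols came from RefSeq (25275 of 27179 identifiers) and GENCODE (18), and the 1886 without a symbol held 0.96% of the counts. Total counts ran from 297561 to 1403005, which limits the precision for genes such as Csf2 and Il10.

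Counts were fitted with edgeR 4.0.16 in R 4.3.3: filterByExpr on the 9 groups left 10275 genes, libraries were scaled by TMM, all 31 libraries shared 1 estimate of the spread, and 19 comparisons were tested with the quasi-likelihood F-test and Benjamini-Hochberg adjustment, responses being compared as interaction terms. Standard errors were computed as the log2 change divided by the square root of F. The procedure was tested on simulated data. Alternatives were RLE factors, library size alone, DESeq2 1.42.0, other filters, fits on only the groups compared, a replicate block, a depth covariate and leaving out each library. Named genes were the 8 members, up to 4 tested genes per list with the smallest p, the 3 genes nearest to each member by correlation, and Tgfbr2 and Cish; Ccl6 and the cell type markers without a test were named after their values were seen. The members and lists were chosen with earlier results of these data known. The list of receptor genes is not reported here as a whole. Of 40 pairs of libraries within groups, 9 had counts that differed by no more than sampling noise on average (chi-square per gene under 1, the lowest 0.772), some with different sex-linked transcripts, and no library was merged.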

Additional observations from a re-analysis of the deposited data

Results flagged for a closer look

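Osm in unstimulated CIS KO, replicate 1, stood at 96.7 CPM, apart from the other 3 libraries of its group at 68.6 to 69.4 CPM. In 30 groups of 4 libraries tested this way, 1 stood apart, and chance gives about 1 in 20.

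The response of Ccl9 differed between TGFBRII KO and WT by 2.71 on the log2 scale at 4 h and by 3.70 at 24 h, both in edgeR's test of the difference itself.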

How the results depend on the processing

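Every value of a called gene kept its sign under every alternative run; the counts of called genes moved. Out of the 6 tested genes, the fit without a low-count filter called 3 in WT at 4 h (1 with the filter), 2 in WT between 24 h and 4 h (0), 4, 4 and 5 for TGFBRII KO against WT unstimulated, at 4 h and at 24 h (0, 2 and 2), 2 for the TGFBRII KO minus WT response at each time (1), 2 and 3 for CIS KO against WT unstimulated and at 24 h (1 and 0), and 3 for the CIS KO minus WT response at 24 h (0). The stricter filter, at least 10 counts in at least 20 libraries, removed Ccl9 and so called 0 in WT at 4 h, 1 in WT at 24 h, 0 in CIS KO at 4 h, 1 for TGFBRII KO against WT at 4 h and at 24 h, and 0 for both TGFBRII KO minus WT responses, and it called 1, Ccl3, for CIS KO against WT at 24 h. RLE factors and library size alone also called Ccl3 there (1 each, adjusted p = 0.0482 and 0.0494). With the depth covariate 1 was called for TGFBRII KO against WT unstimulated and 4 at 24 h, and 1 for CIS KO against WT at 4 h and at 24 h; unstimulated, Ccl5 was then lower in CIS KO than in WT (-0.32, adjusted p = 0.0162, against 0.16 and not called). With only the groups compared in the fit, 2 were called in TGFBRII KO at 24 h, 1 for TGFBRII KO against WT unstimulated, 2 for CIS KO against WT unstimulated and 2 for the TGFBRII KO minus WT response at 4 h. DESeq2 called 0 in TGFBRII KO between 24 h and 4 h.

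Leaving out each library in turn gave 1 to 2 calls in WT at 4 h, 0 to 2 in WT between 24 h and 4 h, 0 to 1 in TGFBRII KO and 2 to 4 in CIS KO between 24 h and 4 h, 0 to 1 for TGFBRII KO against WT unstimulated, 0 to 2 for CIS KO against WT unstimulated and 0 to 1 at 24 h, 1 to 2 for the TGFBRII KO minus WT response at 24 h and 0 to 1 for that of CIS KO at 24 h. Without WT at 4 h, replicate 4, Ccl5 was called in WT at 4 h (1.02, adjusted p = 0.0102), and that estimate then rests on the shallowest library alone, assumed to vary like the other groups. Same-numbered libraries did not deviate together throughout (lowest correlation -0.39 in WT, 0.015 in TGFBRII KO and -0.23 in CIS KO), so the numbers were not taken as pairs. In TGFBRII KO all 9 same-numbered pairs were positive (median 0.096, 4 over 0.1), against a median of -0.054 over 18 other pairs, 0 of them over 0.1. A replicate block called 1 and 2 in WT and 1 and 4 in CIS KO at 4 h and 24 h, and it changed no count of calls in the 19 comparisons; a block within genotype, chosen after seeing the data because sex-linked transcripts follow the number, changed none of the 13 it could fit.

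Over all genes, counts of calls that moved by over 1.5 times were 1226 in WT at 4 h (583 to 1510 over the alternatives), 778 in WT between times (198 to 1028), 824, 2 and 839 in TGFBRII KO at 4 h, at 24 h and between times (403 to 1360, 0 to 206 and 414 to 1492), 2469 and 1587 in CIS KO at 24 h and between times (1421 to 2814 and 734 to 1869), 15 and 1212 for TGFBRII KO against WT unstimulated and at 4 h (9 to 173 and 741 to 1366), 632, 28 and 336 for CIS KO against WT in order of time (57 to 1197, 5 to 81 and 69 to 603), 778 for the TGFBRII KO minus WT response at 4 h (485 to 998), and 0 and 137 for the CIS KO minus WT responses (0 to 68 and 57 to 335). Library size alone moved the median of all genes to -0.11 in WT at 4 h and for CIS KO against WT unstimulated, and to 0.12 in CIS KO between 24 h and 4 h. Depth limits Csf2 and Il10 most, and the 2 WT libraries at 4 h limit that group.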
